A study of Mus musculus with 6 samples.

Results

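The genes described are 6 of plasminogen activation and of the serpin family. Included were the activators Plau and Plat, the receptor Plaur, and the serpins Serpine2, Serpinb2 and Serpinf1. They were taken by gene name from a table of 34745 genes. Each name matched 1 row, and all 6 reached the mean of 1 FPKM needed for testing, as did 10279 genes in all. Serpinb2 did so only through its values at the later tumor stages, given below. The RNA came from lung mesenchymal stromal cells, or LMSCs, grown from MMTV-PyMT mice, in which the mouse mammary tumor virus promoter drives the polyoma middle T oncogene in the mammary epithelium and tumors spread to the lung. A-LMSCs were from mice of 6 to 7 weeks with adenomas, PM-LMSCs from mice of 9 to 10 weeks at the pre-metastatic stage, and M-LMSCs from mice of 13 to 14 weeks with lung metastases, by the ages in the sample labels; the study's methods give slightly older ages for the A- and PM-LMSC mice. Every group was MMTV-PyMT, depleted of CD45+ cells and grown to passage 3, and each had 2 libraries. Stage and age of the mice cannot be told apart.

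Plasminogen activators are serine proteases that cut plasminogen into plasmin, which digests fibrin and matrix proteins. Plau (urokinase) acts mostly at the cell surface, where the GPI-anchored receptor Plaur binds it, whereas Plat (tissue-type activator) is best known for fibrin-bound activity and as an endothelial product. Serpins are suicide inhibitors that trap proteases in a covalent complex. Serpine2 (protease nexin-1) inhibits thrombin and both activators, Serpinb2 (plasminogen activator inhibitor type 2) is a largely intracellular inhibitor of urokinase induced in inflammation, and Serpinf1 (pigment epithelium-derived factor) is a secreted serpin without protease inhibition that is known for blocking angiogenesis.

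RefSeq promoter windows (GRCm38.p6, 250 bases before to 50 after a transcription start) were at hand for Serpine2, Serpinb2, Plaur and Serpinf1. These 4 windows differed widely in base composition. The Serpine2 window was 77.7% G and C with 41 CpG pairs, the Plaur window 59.3% with 7, the Serpinf1 window 50.7% with 3, and the upstream Serpinb2 window 35.3% with 1, against medians of 52.7% and 7 over 32851 windows. Each was searched on both strands for TATAAA (the TATA box), TGANTCA (a pattern that includes AP-1 sites), TGACG (the core of cyclic AMP response elements), GGGCGG (the GC box), CANNTG (the E-box), an NF-kB motif and CCAAT, which were found in 13.6%, 7.81%, 20.8%, 35.7%, 72.3%, 1.63% and 37.4% of all windows. The Serpinb2 and Plaur windows are shown because they belong to the member with the largest difference from A-LMSCs and to the only member lower in M-LMSCs than at both other stages, and because they were the members' windows that held TGANTCA. Capitals mark matches to the TATA box, the TGANTCA pattern, the cyclic AMP core and the GC box. In the window shown, Serpinb2 held TGAATCA 94 bases and TATAAA 29 bases before the start. From a second annotated Serpinb2 start, the same matches lay 181 and 116 bases upstream. Plaur held TGACTCA 69 bases before the start beside 3 GC boxes at 111, 105 and 100 bases. A match is a description of the sequence and not a site shown to be bound.
Serpinb2, chr1:107511173-107511472, plus strand: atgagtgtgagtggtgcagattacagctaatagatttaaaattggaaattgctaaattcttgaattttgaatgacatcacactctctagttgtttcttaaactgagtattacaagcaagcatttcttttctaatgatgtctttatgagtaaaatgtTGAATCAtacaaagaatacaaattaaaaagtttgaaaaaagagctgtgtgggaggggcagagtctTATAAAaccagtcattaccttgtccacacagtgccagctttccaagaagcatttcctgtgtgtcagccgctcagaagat
Plaur, chr7:24462233-24462532, plus strand: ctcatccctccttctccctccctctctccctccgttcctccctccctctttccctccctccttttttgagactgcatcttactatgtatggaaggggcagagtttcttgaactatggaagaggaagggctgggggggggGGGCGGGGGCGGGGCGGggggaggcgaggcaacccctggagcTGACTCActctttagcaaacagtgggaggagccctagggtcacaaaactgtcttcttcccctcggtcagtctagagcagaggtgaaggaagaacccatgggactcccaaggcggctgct

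The deposited values are FPKM, fragments per kilobase of gene scaled to the size of the library, so that levels of different genes can be set side by side. By the spacing of the low values, 1 FPKM stood for about 15 to 21 fragments per kilobase, with 49.7% to 53.0% of low values within 0.05 of a whole fragment, too few to recover counts. At this depth, Serpinb2 rested on about 16.6 to 102 fragments per library and Serpinf1 on about 3001 to 6826. Across the tested genes, log2(FPKM + 1) correlated at 0.977 to 0.992 between libraries of 1 stage and at 0.966 to 0.987 between stages. The 11 stromal markers listed for this work all had a mean above 1 FPKM. They summed to between 2489 and 2556 FPKM for the A-LMSC pair, 2086 and 2411 for the PM-LMSC pair and 2303 and 3231 for the M-LMSC pair. Ly6a (Sca-1), a surface marker of these cells, was between 1.99 and 5.74 FPKM. The 7 macrophage and haematopoietic markers summed to 121.4 and 129.1 FPKM for the A-LMSC pair, 72.2 and 163 for the PM-LMSC pair and 282 and 395 for the M-LMSC pair, most of it from Lyz2, while Ptprc (CD45) was at or below 0.10 FPKM in every library. The 4 of them that were tested (Csf1r, Cd68, Tyrobp and Lyz2) were each higher in both M-LMSC libraries than in the other 4 libraries. In these bulk samples, fewer cells of a type and less RNA per cell cannot be told apart.

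The receptor transcript was the most abundant of the activator axis, and the serpins spanned the widest range. On the mean of 6 libraries, Serpinf1 was at 127 FPKM, Plaur at 38.1 FPKM, Plau at 20.7 FPKM, Plat at 17.7 FPKM, Serpine2 at 3.53 FPKM and Serpinb2 at 1.28 FPKM. Serpinf1 was above 96.9% of the tested genes and Serpinb2 above 5.45%. The ranges over the libraries did not overlap between any neighbors in this order other than Plau and Plat and, by a small margin, Serpine2 and Serpinb2. Plau ranged from 17.7 to 27.8 FPKM and Plat from 10.4 to 28.6 FPKM, and Plau was the higher of the pair in 5 of 6 libraries.

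Plau (ENSMUSG00000021822, chromosome 14, 20836660 to 20843385, plus strand, GRCm38) was at 21.37 and 20.97 FPKM for the A-LMSC pair, 18.40 and 17.97 for the PM-LMSC pair and 27.8 and 17.7 for the M-LMSC pair. Both PM-LMSC libraries lay below both A-LMSC libraries, and the M-LMSC libraries lay above and below all of the others. The stage means were 21.2 ± 0.285, 18.2 ± 0.2998 and 22.8 ± 7.11 FPKM (SD, n = 2). The log2 fold change from limma was -0.21 in PM-LMSCs (95% interval -0.68 to 0.26, adjusted p = 0.889) and 0.07 in M-LMSCs (-0.40 to 0.54, adjusted p = 0.883), both against A-LMSCs. The sign in M-LMSCs rested on M-LMSC replicate 1: without it the value was -0.24.

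Plat (ENSMUSG00000031538, chromosome 8, 22757727 to 22782844, plus strand) was at 15.4 and 17.6 FPKM for the A-LMSC pair, 10.4 and 15.8 for the PM-LMSC pair and 18.6 and 28.6 for the M-LMSC pair. Both M-LMSC libraries lay above the other 4, whereas PM-LMSC replicate 2 lay between the A-LMSC libraries. The means were 16.5 ± 1.57, 13.1 ± 3.87 and 23.6 ± 7.07 FPKM (SD, n = 2). Against PM-LMSCs, the M-LMSC mean was 1.80-fold as high, with a log2 fold change of 0.80 (95% interval 0.20 to 1.40, unadjusted p = 0.0168, adjusted p = 0.428 from limma). With the replicate number as a block, which in this balanced design leaves the difference itself as it was, the interval was 0.49 to 1.11 and the adjusted p from limma was 0.0643, the lowest of any member in any comparison and setting. Between libraries of the same number, the M-LMSC value exceeded the PM-LMSC value by 0.79 for replicate 1 and 0.81 for replicate 2. The change from A- to PM-LMSCs was -0.34 (-0.94 to 0.27, adjusted p = 0.859), and that from A- to M-LMSCs was 0.47 (-0.14 to 1.07, adjusted p = 0.429). The former was -0.05 without PM-LMSC replicate 1 and the latter 0.17 without M-LMSC replicate 2. The macrophage markers were higher in M-LMSCs as Plat was. Within that pair their sum was higher in replicate 1 and Plat in replicate 2. The part of these markers in the level of Plat was not tested.

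The sum of Plau and Plat was 36.8 and 38.6 FPKM for the A-LMSC pair, 28.8 and 33.8 for the PM-LMSC pair and 46.4 in each M-LMSC library, so that the 3 stages did not overlap. The M-LMSC libraries reached the same sum with different shares: the ratio of Plau to Plat was 1.49 in replicate 1 and 0.620 in replicate 2, compared with 1.39 and 1.19 in A-LMSCs and 1.77 and 1.13 in PM-LMSCs. The sum was computed after the values were seen and was not tested.

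Plaur (ENSMUSG00000046223, chromosome 7, 24462484 to 24475968, plus strand) was at 41.0 and 40.0 FPKM for the A-LMSC pair, 41.2 and 43.0 for the PM-LMSC pair and 33.1 and 30.3 for the M-LMSC pair. Its libraries differed by no more than 1.09-fold within a stage, and both M-LMSC libraries lay below the other 4. The M-LMSC mean of 31.7 ± 1.96 FPKM (SD, n = 2) was 0.783 of the A-LMSC mean of 40.5 ± 0.677 FPKM (SD, n = 2) and 0.753 of the PM-LMSC mean of 42.1 ± 1.30 FPKM (SD, n = 2). The log2 fold change was -0.34 against A-LMSCs (95% interval -0.59 to -0.10, unadjusted p = 0.0140, adjusted p = 0.224 from limma) and -0.40 against PM-LMSCs (-0.65 to -0.15, unadjusted p = 0.00704, adjusted p = 0.357 from limma). Between PM- and A-LMSCs it was 0.06, with an interval of -0.19 to 0.30. The markers of macrophages, a cell type known to express Plaur, differed in M-LMSCs in the opposite direction to it, and their part in its level was not tested. The ratio of receptor to urokinase transcript was 1.92 and 1.91 in A-LMSCs, 2.24 and 2.39 in PM-LMSCs and 1.19 and 1.71 in M-LMSCs.

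Serpine2 (ENSMUSG00000026249, chromosome 1, 79794197 to 79861180, minus strand) was at 3.19 and 2.95 FPKM for the A-LMSC pair, 2.62 and 2.65 for the PM-LMSC pair and 5.84 and 3.90 for the M-LMSC pair. The stages did not overlap, with PM-LMSCs lowest and M-LMSCs highest. The M-LMSC mean of 4.87 ± 1.37 FPKM (SD, n = 2) was 1.59-fold the A-LMSC mean of 3.07 ± 0.174 FPKM (SD, n = 2) and 1.85-fold the PM-LMSC mean of 2.64 ± 0.0223 FPKM (SD, n = 2). The log2 fold change was 0.51 against A-LMSCs (95% interval 0.10 to 0.92, unadjusted p = 0.0229, adjusted p = 0.263 from limma) and 0.67 against PM-LMSCs (0.26 to 1.09, unadjusted p = 0.00676, adjusted p = 0.353 from limma). Without M-LMSC replicate 1 these values were 0.27 and 0.43. The part of the macrophage markers, which were also higher in M-LMSCs, was not tested.

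Serpinb2 (ENSMUSG00000062345, chromosome 1, 107511423 to 107535478, plus strand) was at 0.619 and 0.400 FPKM for the A-LMSC pair, 2.89 and 0.593 for the PM-LMSC pair and 2.24 and 0.924 for the M-LMSC pair. The stage means were 0.510 ± 0.155, 1.74 ± 1.63 and 1.58 ± 0.933 FPKM (SD, n = 2). Serpinb2 thus reached the mean of 1 FPKM needed for testing only through the later stages. It was higher in replicate 1 than in replicate 2 at every stage, by 1.55-fold, 4.88-fold and 2.43-fold in A-, PM- and M-LMSCs. The ratios of the stage means to that of A-LMSCs were the largest among the members, at 3.42 in PM-LMSCs and 3.11 in M-LMSCs, but the log2 fold changes of 0.73 (95% interval -0.30 to 1.75, adjusted p = 0.849 from limma) and 0.73 (-0.29 to 1.76, adjusted p = 0.460 from limma) were within the spread between libraries. With the replicate block the intervals were 0.18 to 1.27 in PM-LMSCs and 0.19 to 1.27 in M-LMSCs, and the adjusted p values from limma were 0.233 and 0.122. Between libraries of the same number, the change was 1.27 and 0.19 in PM-LMSCs and 1.00 and 0.46 in M-LMSCs for replicates 1 and 2, positive in all 4 cases. The PM-LMSC difference rested on 1 library, at 0.08 without PM-LMSC replicate 1 and 1.37 without PM-LMSC replicate 2, and the M-LMSC difference was 0.35 without M-LMSC replicate 1. The annotation gives Serpinb2 and Serpinb10 291 shared exon bases on the same strand, and Serpinb10 is listed at 0 in all 6 libraries; how fragments over the shared bases were assigned is not given in the sources used here.

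Serpinf1 (ENSMUSG00000000753, chromosome 11, 75409769 to 75422701, minus strand) was at 138 and 119 FPKM for the A-LMSC pair, 85.1 and 108 for the PM-LMSC pair and 139.5 and 170.1 for the M-LMSC pair. The stages did not overlap, although M-LMSC replicate 1 exceeded A-LMSC replicate 1 by only 0.02 on the log2 scale. The PM-LMSC mean of 96.7 ± 16.5 FPKM (SD, n = 2) was 0.755 of the A-LMSC mean of 128 ± 13.6 FPKM (SD, n = 2), with a log2 fold change of -0.41 (95% interval -0.81 to -0.01, unadjusted p = 0.0476, adjusted p = 0.752 from limma). The M-LMSC mean of 155 ± 21.6 FPKM (SD, n = 2) was 1.60-fold the PM-LMSC mean, with a log2 fold change of 0.68 (0.27 to 1.08, unadjusted p = 0.00575, adjusted p = 0.334 from limma). Against A-LMSCs it was 0.27 (-0.14 to 0.67, adjusted p = 0.485 from limma), and 0.13 without M-LMSC replicate 2. As for Plat and Serpine2, macrophage markers were higher in the M-LMSC libraries. Within that pair their sum was 395 FPKM in replicate 1 and 282 in replicate 2, the reverse order of Serpinf1 and Plat and the order of Serpine2. Of the 11 stromal markers, 4 were higher and 2 lower in both M-LMSC libraries than in both PM-LMSC libraries. The part of these cells was not tested. Apart from the Serpinb2 exons, no member overlapped another annotated gene or shared at least 200 bases at 95% identity with a transcript of another gene.

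**Figure D1:**
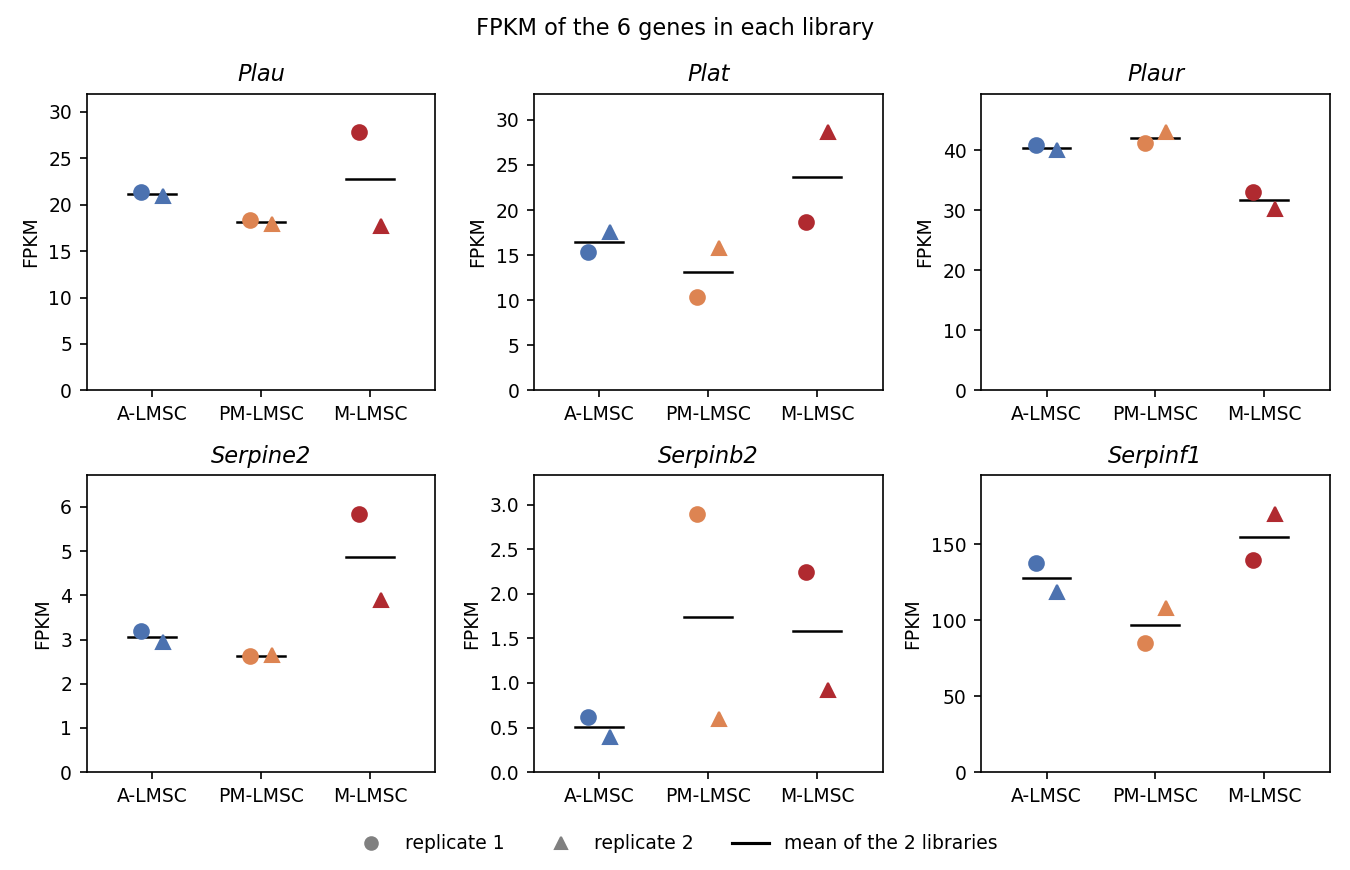
FPKM (linear axes from 0) of the 6 genes in the 2 libraries of each stage; circles are replicate 1, triangles replicate 2, and the black lines the means of the 2 libraries. Plaur is lowest in M-LMSCs (33.1 and 30.3 FPKM), Plat, Serpine2 and Serpinf1 are highest there, and Serpinb2 is higher in replicate 1 at each stage.

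Counted together, 0 of the 6 genes passed an adjusted p of 0.05 in any comparison, in limma's test with or without the replicate block. The shares of all tested genes called were 0.0389% between PM- and A-LMSCs, 0.0681% between M- and A-LMSCs and 0.0292% between M- and PM-LMSCs, and with the block 0.292%, 3.92% and 0.418%. At an unadjusted p under 0.05, the member count was 1 between PM- and A-LMSCs (Serpinf1), 2 between M- and A-LMSCs (Plaur and Serpine2) and 4 between M- and PM-LMSCs (Plat, Plaur, Serpine2 and Serpinf1), against 6.53%, 14.6% and 8.94% of the tested genes. With the replicate block, the counts at an unadjusted p under 0.05 were 3 (Plat, Serpinb2 and Serpinf1), 4 (Plat, Plaur, Serpine2 and Serpinb2) and 4 (Plat, Plaur, Serpine2 and Serpinf1), against 13.8%, 24.3% and 16.0% of the tested genes. Serpinb2 was tested only because of its later-stage values, so its place in the counts against A-LMSCs partly follows from that filter.

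The libraries of the later stages were also compared with the others by overlap alone. Between PM- and A-LMSCs, Plaur was higher in both PM-LMSC libraries (1 of 6, against 19.6% of tested genes) and Plau, Serpine2 and Serpinf1 were lower in both (3 of 6, against 19.7%). Between M- and A-LMSCs, Plat, Serpine2, Serpinb2 and Serpinf1 were higher (4 of 6, against 27.1%) and Plaur was lower (1 of 6, against 24.4%). Between M- and PM-LMSCs, Plat, Serpine2 and Serpinf1 were higher (3 of 6, against 17.8%) and Plaur was lower (1 of 6, against 16.7%). The comparisons share libraries, so that these counts are not independent. Serpinb2 reached the mean needed for testing through its later-stage values, so its place among the higher members partly follows from that filter. The median log2 fold change of the 6 genes was -0.19, 0.37 and 0.47 in the 3 comparisons, beside 0.01, 0.03 and 0.00 over all tested genes.

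**Figure D2:**
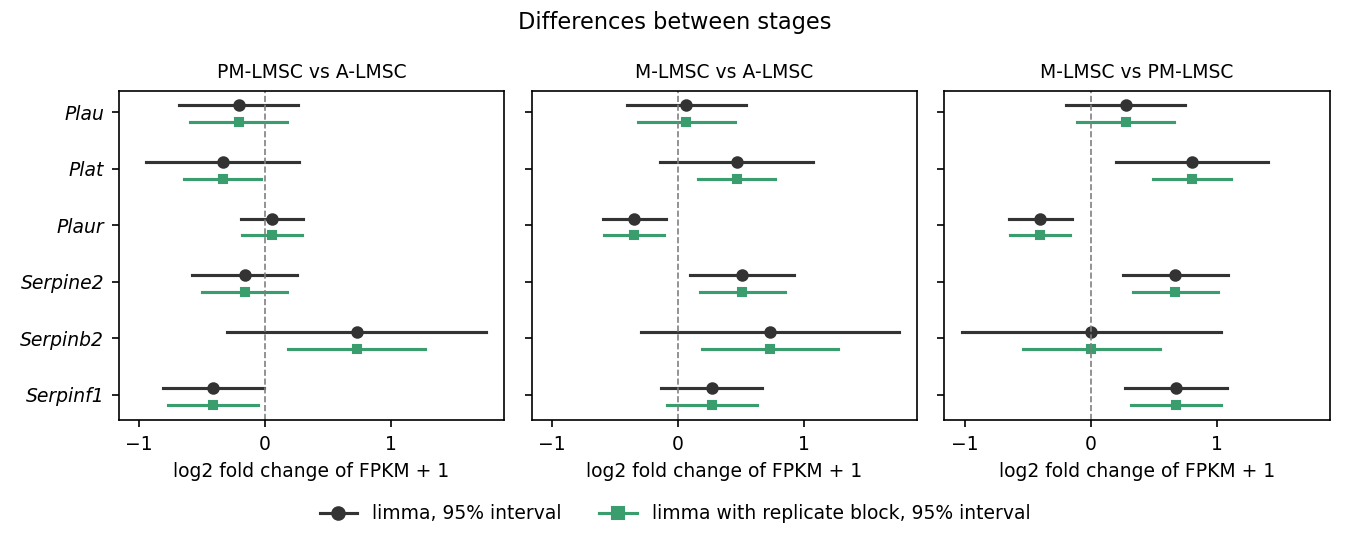
Log2 fold changes of FPKM + 1 (x axis) of the 6 genes between each pair of stages, with 95% intervals from limma without (black circles) and with (green squares) the replicate block. Between M- and PM-LMSCs, the intervals of Plat, Serpine2 and Serpinf1 lie above 0 and that of Plaur below it, and no gene passed the adjusted p of 0.05.

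Between the replicate numbers of the labels, Serpinb2 and Plat differed most among the members. In the fit with the block, replicate 2 differed from replicate 1 by 0.45 for Plat (SE 0.11, unadjusted p = 0.00399, adjusted p = 0.120 from limma) and by -0.75 for Serpinb2 (SE 0.19, unadjusted p = 0.00520, adjusted p = 0.122 from limma). Plat was thus higher in replicate 2 at all 3 stages and Serpinb2 in replicate 1 at all 3. No member passed the threshold for this term, which 0.0486% of tested genes did, and for the other 4 members the difference was between -0.23 and 0.14. The labels do not say what the numbers stand for. Over the 6 libraries, which share the stages and the numbers, the Pearson correlation of log2(FPKM + 1) was 0.91 between Plat and Serpinf1 and 0.78 between Plau and Serpine2, and Plaur was at -0.80 with Plat, -0.78 with Serpine2 and -0.76 with Serpinf1. Serpinb2 followed no other member closely, with correlations from -0.40 to 0.33.

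Genes related to the members were read from lists. Of the 10 other inhibitors of activators and plasmin, 4 were tested and 0 were called in any comparison. Serping1 (C1 inhibitor) had a mean of 305 FPKM and Serpinb6a of 45.2 FPKM. Among 12 genes of plasminogen, its activation and its binding at the cell surface, 8 were tested and 0 called. Anxa2 and S100a10, which together form a surface receptor for plasminogen and Plat, had means of 414 and 163 FPKM, and the integrin subunit Itgb1 of 353 FPKM. Plg, the substrate itself, and F12 and Vtn, which are mainly liver products, were listed at 0 in all 6 libraries. Of 8 genes of clearance receptors and their chaperone, which take up complexes of protease and serpin, 7 were tested and 0 called; Lrp1 had a mean of 146 FPKM and Lrpap1 of 21.2 FPKM. The receptors proposed for Serpinf1 gave 3 tested genes of 4 and 0 calls, with Rpsa at 945 FPKM, Plxdc2 at 11.3 FPKM and Pnpla2 at 5.99 FPKM. These are transcript levels, and whether the products act as receptors in these cells was not tested.

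Of 9 coagulation genes of the cell surface, 6 were tested and 0 called without the block. F2r, the thrombin receptor, had a mean of 321 FPKM, F3 (tissue factor) of 153 FPKM and Thbd (thrombomodulin) of 115 FPKM. Procr, the receptor of protein C, was at 6.81 and 7.73 FPKM for the A-LMSC pair, 12.4 and 12.8 for the PM-LMSC pair and 10.8 and 11.2 for the M-LMSC pair. The log2 fold change of Procr between M- and A-LMSCs was 0.54 (adjusted p = 0.118 from limma), which passed the threshold with the replicate block (adjusted p = 0.0394).

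The other serpins numbered 65 in the table, of which 14 were tested and 21 were listed at 0 in all libraries. Those with high means included the collagen chaperone Serpinh1 at 711 FPKM, Serping1 at 305 FPKM, Serpinb6a at 45.2 FPKM and Serpina3n at 43.0 FPKM, so that Serpinf1 ranked between Serping1 and Serpinb6a. None of the 14 was called without the block. With it, Serpina3n, an acute-phase serpin, was higher at the metastatic stage than in A-LMSCs (log2 fold change 0.65, adjusted p = 0.0251 from limma) and PM-LMSCs (0.86, adjusted p = 0.0397), and Serpinb6b was so against A-LMSCs (0.62, adjusted p = 0.0275). With a correction for GC content and length added to the block, the adjusted p values from limma of the last 2 differences were 0.0572 and 0.0531. Serpina3n was at 38.8 and 36.0 FPKM for the A-LMSC pair, 31.1 and 33.5 for the PM-LMSC pair and 58.0 and 60.8 for the M-LMSC pair, the same order of stages as Serpine2 and Serpinf1.

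**Figure D3:**
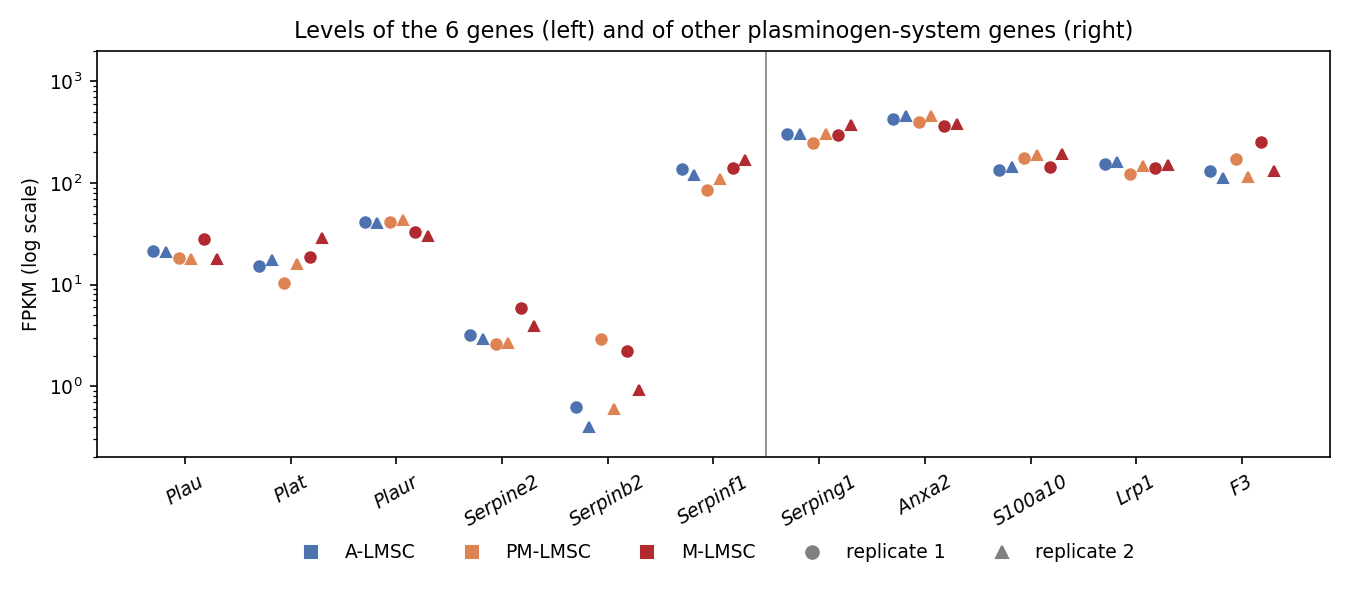
FPKM (log axis) of the 6 genes (left of the line) and of 5 other genes (right), with stages by color and replicates by shape. The other genes are Serping1, Anxa2, S100a10, Lrp1 and the coagulation gene F3. Both activators lie between 10.4 and 28.6 FPKM, below each of the 5 other genes in every library, and Serpinb2 and Serpine2 are the lowest of the genes drawn.

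For each member, the tested genes most like it over the 6 libraries were Taf11, E2f6 and M6pr for Plau (Pearson's r 0.99, 0.98 and 0.98), Pxdn and Pxmp2 for Plat (0.99 and 0.98), Ndn, Chst7 and AI846148 for Plaur (0.99, 0.99 and 0.98), 2510009E07Rik, Idh1 and Atp5f1 for Serpine2 (0.99, 0.98 and 0.98), Eif2ak4, Tsr1 and Krcc1 for Serpinb2 (1.00, 0.99 and 0.99) and Casp6, Nkd1 and Gabarap for Serpinf1 (1.00, 0.99 and 0.98). With 6 libraries such values are common: between 79 tested genes (Plau) and 660 (Serpinb2) reached 0.9 with a member. The markers of other cell types also differed between stages. The mesothelial list summed to 55.6 and 81.5 FPKM for the A-LMSC pair, 125 and 186 for the PM-LMSC pair and 88.6 and 229 for the M-LMSC pair, and the epithelial list to between 3.35 and 22.04 FPKM, higher at both later stages. The 5 mesothelial genes did not all differ in 1 direction. Between PM- and A-LMSCs, 4 were higher and 1 was lower in both libraries. Between M- and A-LMSCs, 0 were called higher and 1 was called lower, and with the block 3 were called higher and 1 lower. The endothelial list, of a cell type known to make Plat, summed to 1.47 and 1.52 FPKM for the A-LMSC pair, 1.54 and 1.67 for the PM-LMSC pair and 2.476 and 2.599 for the M-LMSC pair, with Kdr the only tested gene of 4 and Pecam1 at or below 0.03 FPKM. The part of these cells in the members' levels was not tested.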

How the data were processed

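RNA-seq of cultured LMSCs from 3 tumor stages, with 2 libraries each, was analyzed. The authors deposited 1 table of FPKM values with Ensembl identifiers. The submitters' processing notes name TopHat2 2.0.9 and mm10; the counting tool, annotation and use of strand are not given in the sources used here. Of the identifiers, 34267 were found in GENCODE M21 (GRCm38), the source of coordinates.

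Genes averaging 1 FPKM or more (10279) were fitted as log2(FPKM + 1) in R 4.3.3 with limma 3.58.1 (lmFit, eBayes with trend, 1 mean per stage, all 6 libraries). On this scale, changes of low genes are understated. Benjamini-Hochberg adjustment ran over all tested genes. The study counts its RNA-seq replicates as mice, 3 per stage. Of these, 1 per stage came from a separate experiment and was not analyzed here. The labels do not tie each library to a mouse, so p-values measure the spread between these libraries. Same-numbered libraries deviated together in all 3 pairs of stages (r = 0.238, 0.307 and 0.491), so a fit blocked on these numbers was set beside this unpaired fit, from which all values come unless the block is named. Copies were searched with blastn 2.17.0. The unpaired fit was tested on simulated data with independent libraries, which does not cover the shared deviations of same-numbered libraries. The genes and lists were chosen with earlier results of these data known; genes outside the members are named for a call, a high mean or a value of 0. Some genes these rules would name are not reported here.

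Alternatives were a pseudocount of 0.1, no filter, quantile normalization, centering on library medians, a fit of only the stages compared, the replicate number as a block with and without a correction for GC content and length, and leaving out each library in turn.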

Additional observations from a re-analysis of the deposited data

Results flagged for a closer look

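Serpine2, Serpinf1 and Plaur lay on opposite sides of both A-LMSC libraries at the later stages, in all libraries. For Serpine2 and Serpinf1 both PM-LMSC libraries were below and both M-LMSC libraries above the A-LMSC libraries, and the log2 fold changes between the later stages were 0.67 (adjusted p = 0.353 from limma) and 0.68 (adjusted p = 0.334 from limma). For Plaur the order was the reverse, with a value of -0.40 (adjusted p = 0.357 from limma). Both orders rest on the same pair of A-LMSC libraries, and some margins were narrow. For Plaur, PM-LMSC replicate 1 exceeded A-LMSC replicate 1 by only 0.008 on the log2 scale. For Serpinf1, M-LMSC replicate 1 exceeded A-LMSC replicate 1 by only 0.02. Of all tested genes, 296 (2.88%) had the later stages on opposite sides of both A-LMSC libraries.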

How the results depend on the processing

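Across 13 alternatives, 0 of the 6 genes passed the threshold in any comparison (lowest adjusted p = 0.0643 from limma, Plat between M- and PM-LMSCs with the replicate block). Of 234 recomputed differences of single members, 90 could not change by construction (no filter, only the stages compared, the balanced block, or leaving out a library of the stage not compared). Of the other 144, 138 kept their direction and 6 turned. The latter were Plau without M-LMSC replicate 1, at -0.24 against A-LMSCs (range on leaving out each library -0.24 to 0.38) and -0.033 against PM-LMSCs (-0.033 to 0.59), and Serpinb2 between M- and PM-LMSCs, at -0.023 with quantile normalization, -0.013 with centering on library medians, -0.64 without PM-LMSC replicate 2 and -0.37 without M-LMSC replicate 1 (-0.64 to 0.65). The median of the members between M- and PM-LMSCs was 0.20 without M-LMSC replicate 1 (0.20 to 0.52 over the libraries left out).

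Counts over all tested genes moved more. Between PM- and A-LMSCs, 4 genes were called, 1 without a filter on low values, 21 with only the stages compared, 30 with the replicate block, 6 with the block and a correction for GC content and length, and 1 to 28 on leaving out each library. Between M- and A-LMSCs, 7 were called, 3 without the filter, 1 with only the stages compared, 403 with the replicate block, 305 with the block and that correction, and 1 to 90 on leaving out each library. Between M- and PM-LMSCs, 3 were called, 43 with the replicate block, 6 with the block and that correction, and 2 to 25 on leaving out each library. The cause was not tested. Where a stage was left with 1 library, it was assumed to vary like the others. With 2 libraries a stage and no counts, differences of members could be missed. Even some with intervals that left out 0 were not called. Plat between M- and PM-LMSCs was at 0.80 (0.20 to 1.40, adjusted p = 0.428 from limma).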
